A study of Mus musculus with 27 samples.

Results

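Gem, Rrad and Rem1 belong to the RGK family of small GTPases, which was followed here across a time course of parathyroid hormone action. The members were chosen by gene symbol, as the array probe sets annotated to exactly 1 of these 3 symbols. The annotation paired Gem and Rrad with 1 probe set each. It paired Rem1 with none, so Rem1 is not analysed here, and no other probe set of Gem or Rrad could serve as a check. The results therefore cover 2 genes of 18193 with a probe set. The family was picked because Gem had risen with both ligands at 1 h in these same arrays. Gem's differences at 1 h, from untreated cells and between the ligands, are therefore descriptions without a test. Rem2, the remaining RGK gene, is given beside them.

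Cells of KUSA4b10, a line of mouse marrow stromal cells able to differentiate towards osteoblasts, were measured on 27 Affymetrix arrays, 3 in each of 9 groups. Cells stayed untreated, received the parathyroid hormone fragment PTH(1–34) at 10 nM, or received 20 nM of PTHrP(1–141), the related peptide hormone. Collection was 1, 6 or 24 h later. All groups are of this 1 cell line, the labels do not say whether replicates were separate cultures, and ligand, peptide length and dose cannot be told apart where PTHrP is set against PTH.

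RGK proteins are members of the Ras superfamily that lack the lipid anchor of most Ras proteins. They bind the beta subunits of voltage-gated calcium channels and lower calcium entry through them. Calmodulin and 14-3-3 proteins bind several of them in turn. Gem was first described in mitogen-stimulated T cells and is induced rapidly by many stimuli, while Rrad is best known from skeletal muscle and heart, and Rem1 from heart. PTH and PTHrP share a receptor that raises cAMP and calcium in cells of the osteoblast lineage.

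The median intensity of an array was between 83.15 and 91.08. The correlation of log2 values between arrays of 1 group, across genes, was at least 0.992 in 8 groups. In the PTHrP 1 h group it went down to 0.9831, since its replicate 3 differed from the other two. Of 8 stromal and osteoblast markers, 6 had a probe set, and all 6 had a median log2 intensity above 7. Of 6 skeletal muscle markers 2 did so, of 5 endothelial markers 0, and of 5 macrophage and blood markers 1. The 3 adipocyte markers measured, Adipoq, Fabp4 and Pparg, were also bright, with median log2 intensities of 11.3, 10.67 and 8.77. The 3' to 5' log2 ratio of Actb probe sets, which rises when RNA is degraded, lay between 0.21 and 0.45 on all arrays.

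Gem had the widest range of levels of the 3 RGK genes measured. Its order of mean levels over the 9 groups, on the log2 intensity scale, began with PTH at 6 h at 8.99 ± 0.28 (SD, n = 3), PTH at 1 h at 8.87 ± 0.28 and PTHrP at 1 h at 8.56 ± 0.42. The arrays of each of these neighbours overlapped. A gap of 1.68 log2 units followed, down to PTHrP at 6 h at 6.88 ± 0.29. Then came PTH at 24 h at 6.31 ± 0.16, PTHrP at 24 h at 6.03 ± 0.28 and untreated cells at 1 h at 5.82 ± 0.23, again with overlapping neighbours. Untreated cells at 24 h and 6 h were lowest, at 5.29 ± 0.30 and 5.15 ± 0.08. From the lowest to the highest group mean Gem spanned 3.84 log2 units, against 0.89 for Rrad and 0.31 for Rem2.

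**Figure D1:**
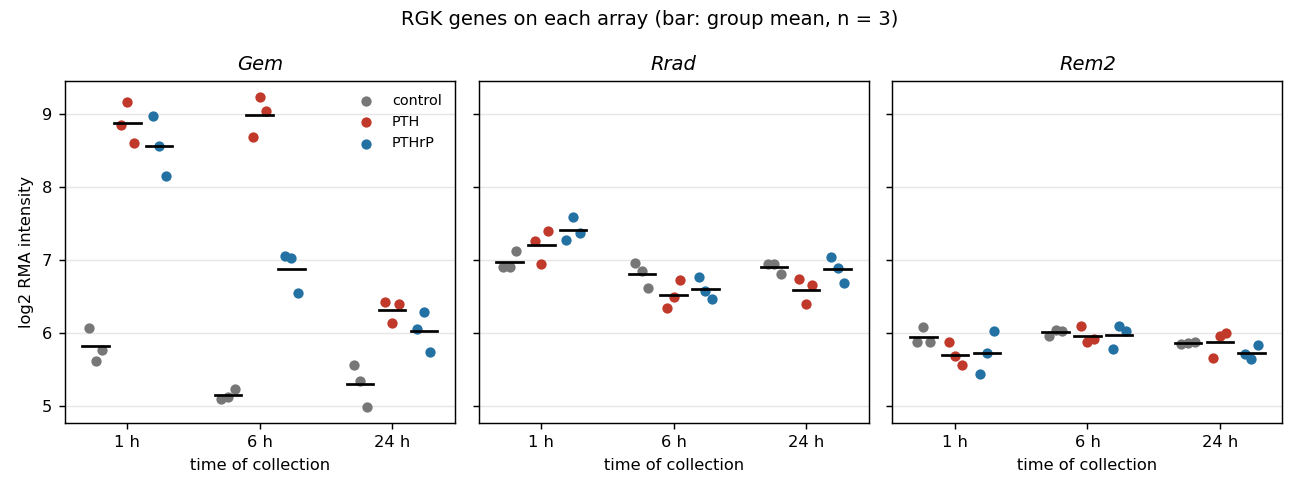
Log2 RMA intensity of Gem, Rrad and Rem2 on each of 27 arrays, by time of collection (1, 6 and 24 h) and treatment (grey untreated, red PTH, blue PTHrP), with a black bar at each group mean of 3 arrays. Gem rises from group means of 5.15 to 5.82 in untreated cells to 8.99 with PTH at 6 h, and the group means of Rrad and Rem2 span 0.89 and 0.31 log2 units.

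At 1 h Gem stood high with both ligands. The untreated arrays lay at 6.07, 5.61 and 5.77 on the log2 scale. With PTH the 3 arrays lay at 8.85, 9.16 and 8.61. With PTHrP they lay at 8.98, 8.56 and 8.15, the last being the divergent replicate 3. All treated arrays were above all untreated ones, and the 2 treated groups overlapped each other. Arrays did not overlap in 17.3% of all genes tested with PTH, in 12.8% with PTHrP and in 6.91% between the ligands. The difference from untreated cells was 3.06 ± 0.20 log2 units with PTH (SE from the fit, n = 3), or 8.32-fold, and 2.74 ± 0.20 with PTHrP, or 6.7-fold. Without that divergent array the PTHrP difference was 2.95 ± 0.20. Of 15711 genes tested, Gem had the 6th highest difference with PTH and the 5th highest with PTHrP. These are the values taken to have led to its choice. For scale, 1.44% of all genes tested were called higher with PTH at 1 h and 1.57% with PTHrP, called meaning an adjusted p under 0.05.

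The difference of Gem between PTHrP and PTH at 1 h is also a description, since both groups are taken to have had a part in its choice. It was -0.31 ± 0.20 log2 units (95% interval -0.72 to 0.1). Of all genes tested, 0% were called between the ligands at this time, so the comparison made no call for any gene.

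Rrad did not pass at 1 h. Its untreated arrays lay at 6.90, 6.90 and 7.12, those with PTH at 7.26, 6.94 and 7.40, and those with PTHrP at 7.27, 7.59 and 7.37 (log2 intensity). The PTH arrays overlapped the untreated ones, and the PTHrP arrays lay above them, in a comparison where 12.8% of all genes tested had arrays that did not overlap. The differences were 0.23 ± 0.13 log2 units with PTH (adjusted p = 0.654) and 0.44 ± 0.13 with PTHrP (adjusted p = 0.111), and neither passed.

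At 6 h Gem remained high with PTH, and was also above untreated cells with PTHrP, but by far less. The untreated arrays lay at 5.09, 5.12 and 5.23, those with PTH at 8.69, 9.24 and 9.04, and those with PTHrP at 7.05, 7.03 and 6.55 (log2 intensity). The 3 groups did not overlap: each PTHrP array was above each untreated array and below each PTH array. Among all genes tested, arrays did not overlap in 43.9% with PTH, in 39.9% with PTHrP and in 25% between the ligands. PTH raised Gem by 3.84 ± 0.20 log2 units, or 14.4-fold (95% interval 3.43 to 4.25; adjusted p = 1.62e-13). PTHrP raised it by 1.73 ± 0.20, or 3.32-fold (95% interval 1.32 to 2.14; adjusted p = 4.07e-07). Both comparisons use the same 3 untreated arrays. Of all genes tested, 11.4% were called higher with PTH and 8.7% with PTHrP at this time. By size Gem's increase was the 9th highest with PTH and the 34th highest with PTHrP.

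**Figure D2:**
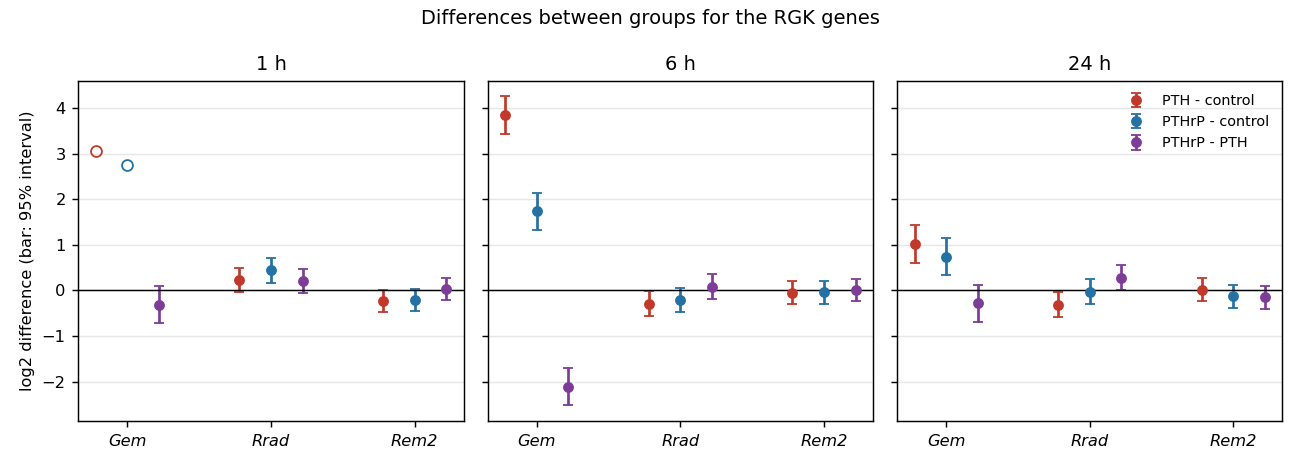
Log2 differences of Gem, Rrad and Rem2 for PTH against untreated cells (red), PTHrP against untreated cells (blue) and PTHrP against PTH (purple) at 1, 6 and 24 h. Bars are 95% intervals from the fit. Open circles mark the 1 h differences of Gem from untreated cells, which are taken to have led to its choice and were not tested. The PTHrP against PTH difference of Gem is -2.11 at 6 h, while its intervals include 0 at 1 and 24 h.

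Gem separated the ligands at 6 h. It was lower with PTHrP than with PTH by -2.11 ± 0.20 log2 units, a 4.33-fold difference (95% interval -2.52 to -1.7; adjusted p = 5.17e-07). The difference passed under every alternative tried and lay between -2.49 and -1.95. Of all genes tested, 7.62% were called between the ligands at 6 h, 4.45% higher and 3.17% lower with PTHrP, and 23 genes were lower by at least 1 log2 unit. Gem had the 3rd lowest difference of the 15711, after the cytokine gene Il6 at -2.72 ± 0.37 and the lubricin gene Prg4 at -2.24 ± 0.18, Prg4 being named after its value was seen. In a comparison added after the values were seen, the ligand difference of Gem at 6 h less that at 1 h was -1.80 ± 0.28 log2 units. This comparison uses the treated arrays of 1 h, which are taken to have had a part in the choice of Gem. It is therefore a description without a test. For scale, 0.579% of all genes tested were called lower in it.

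**Figure D3:**
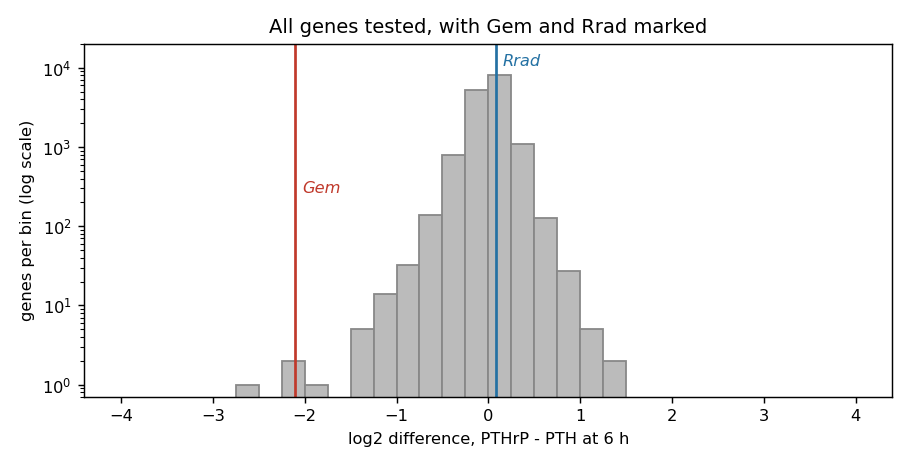
Number of genes (log scale) by log2 difference between PTHrP and PTH at 6 h, in bins of 0.25 log2 units over all 15711 genes tested. Gem, marked in red at -2.11, lies at the low edge of the distribution, and Rrad, marked in blue at 0.08, lies near its centre.

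Marker levels that differed between the ligands at 6 h are given here with RNA quality. The mean log2 intensity of the 3 adipocyte markers at 6 h was 10.12 to 10.37 with PTH and 10.4 to 10.82 with PTHrP. In untreated cells it was 10.04 to 10.5, which overlapped both. That of the 6 stromal and osteoblast markers was 12.22 to 12.3 with PTH, 12.5 to 12.62 with PTHrP and 12.94 to 12.98 in untreated cells. The 5 endothelial markers averaged 5.26 to 5.35 with PTH, 5.43 to 5.54 with PTHrP and 5.28 to 5.35 in untreated cells. The skeletal muscle and the macrophage and blood markers overlapped between the ligands. The Actb ratio overlapped too, at 0.33 to 0.35 with PTH and 0.27 to 0.36 with PTHrP, and was 0.23 to 0.31 in untreated cells. The same ratio of Gapdh was -0.18 to -0.15 with PTH, -0.17 to -0.13 with PTHrP and -0.22 to -0.19 in untreated cells. The part of these levels in the result for Gem was not tested, and in bulk RNA a change in the number of expressing cells and a change in RNA per cell cannot be told apart.

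Rrad was slightly below untreated cells at 6 h with either ligand, and did not pass. The untreated arrays lay at 6.96, 6.85 and 6.61, those with PTH at 6.34, 6.49 and 6.73, and those with PTHrP at 6.77, 6.57 and 6.46 (log2 intensity), so both treated groups overlapped the untreated one. The differences were -0.29 ± 0.13 log2 units with PTH (adjusted p = 0.103; 0.0469 and 0.0399 without control or PTH replicate 3) and -0.21 ± 0.13 with PTHrP (adjusted p = 0.297). Between the ligands Rrad differed by 0.08 ± 0.13 (95% interval -0.19 to 0.35; adjusted p = 0.793). The effect of PTHrP on Rrad went down from 1 to 6 h by -0.65 ± 0.18 log2 units (adjusted p = 0.0214), and 8.45% of all genes tested were called lower in that comparison. This call was lost without control 1 h replicates 1 or 2, control 6 h replicate 1, PTHrP 1 h replicate 2 or PTHrP 6 h replicate 3, where the adjusted p was 0.0524 to 0.0723, and with the upper quartile of each array as a covariate (adjusted p = 0.083). The same change with PTH was -0.52 ± 0.18 and missed the threshold (adjusted p = 0.0526), where 12.1% of genes were called lower. It passed without control 1 h replicate 3, control 6 h replicate 3, PTH 1 h replicate 2 or PTH 6 h replicate 3 (adjusted p = 0.0153 to 0.0395).

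Gem and Rrad were also compared within each array. The log2 value of Gem minus that of Rrad was -1.66 ± 0.26 in untreated cells at 6 h (SD, n = 3), 2.47 ± 0.25 with PTH and 0.28 ± 0.19 with PTHrP. Only the change of this number between groups can be read, because the 2 probe sets have no common scale. It was larger by 4.13 with PTH and by 1.94 with PTHrP, each without overlap of arrays (two-sided exact permutation p = 0.1 for each, the smallest that 3 arrays against 3 can give). At 24 h it was larger by 1.33 and 0.76 (exact p = 0.1 for each). This comparison was added after the values were seen.

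After 24 h Gem had come down but stayed above untreated cells. The untreated arrays lay at 5.56, 5.34 and 4.98, those with PTH at 6.42, 6.13 and 6.39, and those with PTHrP at 6.05, 6.29 and 5.74 (log2 intensity). Both treated groups lay above the untreated one, and they overlapped each other. Among all genes tested, arrays did not overlap in 27% with PTH and in 26.4% with PTHrP. The increase was 1.02 ± 0.20 log2 units with PTH, or 2.03-fold (adjusted p = 0.000814), and 0.74 ± 0.20 with PTHrP, or 1.67-fold (adjusted p = 0.0232). Of all genes tested, 5.69% were called higher with PTH and 3.09% with PTHrP. The PTHrP call was lost without control replicates 2 or 3 or PTHrP replicates 1 or 2, with adjusted p from 0.0603 to 0.174, while the PTH call passed under every alternative tried. Between the ligands Gem differed by -0.28 ± 0.20 (95% interval -0.69 to 0.13; adjusted p = 0.797), with 1.16% of all genes tested called, 0.84% higher and 0.318% lower with PTHrP.

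The decline of Gem's response from 6 to 24 h was steep with PTH. Its PTH effect changed by -2.82 ± 0.28 log2 units (adjusted p = 7.66e-08), the 12th lowest change of the 15711 genes, where 7.82% were called lower. Its PTHrP effect changed by -0.99 ± 0.28 (adjusted p = 0.0207), where 5.03% of genes were called lower. That call was lost without control 24 h replicate 1, PTHrP 24 h replicate 3 or PTHrP 6 h replicates 1 or 2 (adjusted p = 0.0546 to 0.0673) and after cyclic loess (adjusted p = 0.0644). The ligand difference itself narrowed from 6 to 24 h by 1.83 ± 0.28 log2 units (adjusted p = 0.000909), in a comparison added after the values were seen that called 0.904% of genes higher. At 24 h the Actb ratio was 0.41 to 0.43 with PTH and 0.43 to 0.45 with PTHrP, against 0.36 to 0.39 in untreated cells. The adipocyte markers averaged 9.29 to 9.89, 9.27 to 10.28 and 10.03 to 10.56 in those groups, and the stromal and osteoblast markers 11.01 to 11.33, 11.6 to 11.94 and 12.38 to 12.45. Their part in the 24 h values of Gem was not tested.

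Rrad at 24 h lay at 6.94, 6.95 and 6.81 in untreated cells, at 6.74, 6.39 and 6.65 with PTH and at 7.04, 6.89 and 6.68 with PTHrP (log2 intensity). The PTH arrays were all below the untreated ones, as in 27% of all genes tested whose arrays did not overlap in either direction. The PTH difference was -0.31 ± 0.13 log2 units (adjusted p = 0.152) and the PTHrP difference -0.03 ± 0.13 (adjusted p = 0.966). Over the 9 comparisons of treated with untreated cells and of the ligands, Rrad passed in 0 by limma and had an unadjusted p under 0.05 in 4. Its 95% intervals lay between -0.58 and 0.71, so a doubling or halving of its measured level lay outside them at every time. The probe set of Rrad averaged a log2 intensity of 6.875 over all arrays. RMA can compress differences of dim probe sets, and its part in Rrad's differences was not tested.

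Rem2, the neuronal and endocrine RGK gene, also passed in 0 of the 9 comparisons, with an unadjusted p under 0.05 in 0. Its brighter probe set had group means from 5.7 to 6.01 and its other probe set from 4.86 to 5.07, on the log2 scale. The 95% intervals of the brighter one lay between -0.48 and 0.27. With array weights it was called lower at 1 h, by -0.30 with PTH (adjusted p = 0.0459) and -0.43 with PTHrP (adjusted p = 0.00408).

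The untreated arrays of Gem at 6 h and at 24 h all lay below those of 1 h, as given above. Arrays did not overlap in 23.1% and 42.2% of all genes tested, and for Gem the differences were -0.67 ± 0.20 log2 units at 6 h (adjusted p = 0.0844) and -0.53 ± 0.20 at 24 h (adjusted p = 0.0591). Neither passed in the fit of all groups. In fits to the arrays of the compared groups alone both did, at adjusted p = 0.00696 and 0.0201, and 24 h also did without control 24 h replicate 1 (adjusted p = 0.0351). The untreated arrays of 1 h are taken to have had a part in the choice of Gem, so these p-values are not independent of it. Of all genes tested, 1.55% were called lower at 6 h and 11.5% at 24 h. Rrad differed by -0.17 ± 0.13 and -0.08 ± 0.13 (adjusted p = 0.748 and 0.792). The untreated level of Gem lay close to log2 5, the limit of the filter on low values, which it reached on 26 of 27 arrays. RMA can compress differences of dim probe sets, and its part in Gem's folds was not tested.

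Gem's replicates were more scattered than those of most genes. Its residual SD within groups was 0.27 log2 units, above that of 98.4% of the genes tested, whose median was 0.127. For Rrad it was 0.17.

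Genes whose pattern was most like that of Gem were sought among 1999 genes whose 9 group means spanned at least 1 log2 unit, by Pearson r over the 9 group means. The first 5 were Il6, at r = 0.985, Dusp10, a phosphatase of stress-activated MAP kinases, at 0.976, Vegfa, a vascular growth factor gene, at 0.965, Rgs2, a regulator of G protein signalling, at 0.961, and Bhlhe40, a transcriptional repressor gene, at 0.955. In all, 22 genes had r above 0.9. Over the 27 single arrays the same 5 genes had the highest r, from 0.946 to 0.971. By Spearman rank correlation over 9 groups the first was Plaur, the gene of the urokinase receptor, at 0.967, named after its value was seen. The points share their arrays and treatments, so these values describe likeness only. Side by side at 24 h, the PTH difference was 1.02 ± 0.20 log2 units for Gem, 0.60 ± 0.37 for Il6, 0.64 ± 0.10 for Bhlhe40, 0.28 ± 0.14 for Rgs2, 0.25 ± 0.11 for Vegfa and 0.08 ± 0.10 for Dusp10. The PTHrP difference at 24 h was 1.40 ± 0.37 for Il6, above the 0.74 ± 0.20 of Gem, and 0.37 ± 0.10 for Bhlhe40, 0.32 ± 0.14 for Rgs2, 0.12 ± 0.10 for Dusp10 and 0.03 ± 0.11 for Vegfa. Between the ligands at 6 h, Rgs2 differed by -1.04 ± 0.14, Vegfa by -0.53 ± 0.11, Dusp10 by -0.37 ± 0.10 and Bhlhe40 by -0.30 ± 0.10.

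**Figure D4:**
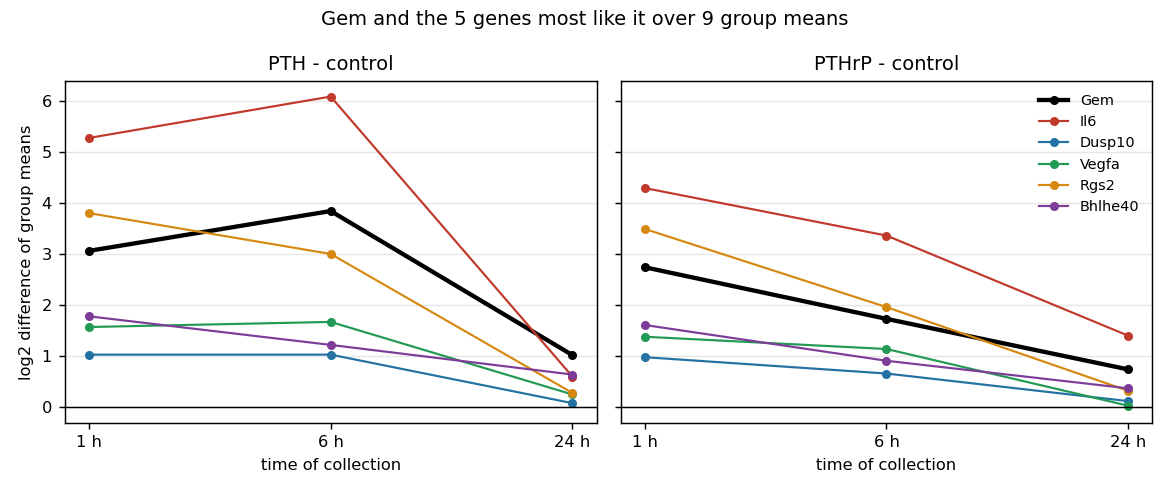
Difference of group means from untreated cells of the same time, in log2 units, for Gem (thick black) and the 5 genes most like it, with PTH (left) and PTHrP (right) at 1, 6 and 24 h. Gem goes from 3.06 at 1 h to 3.84 at 6 h with PTH, and from 2.74 to 1.73 with PTHrP.

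RGK GTPases act on calcium channels, whose genes were followed at the level of RNA. Cacna1c, which encodes a pore of L-type channels, rose at 6 h by 1.13 ± 0.09 log2 units with PTH (adjusted p = 1.79e-10) and by 1.04 ± 0.09 with PTHrP (adjusted p = 1.97e-09). Between the ligands it differed by -0.10 ± 0.09 (adjusted p = 0.588). At 1 h it differed by 0.08 ± 0.09 and 0.24 ± 0.09, and at 24 h by 0.21 ± 0.09 and 0.19 ± 0.09, none of which passed. Other L-type pore genes, Cacna1d and Cacna1f, did not pass at 6 h. Cacna1d differed by 0.08 ± 0.14 with PTH and 0.07 ± 0.14 with PTHrP, and Cacna1f by -0.04 ± 0.10 and 0.10 ± 0.10. Cacna1s was not tested. Cacna1g, a T-type pore gene, rose at 6 h by 0.53 ± 0.10 and 0.54 ± 0.10 and at 24 h fell by 0.48 ± 0.10 and 0.42 ± 0.10. Cacna2d2, an auxiliary subunit gene, at 6 h fell by 0.57 ± 0.13 and 0.53 ± 0.13. At 24 h its difference was -0.67 ± 0.13 with PTH, a call (adjusted p = 0.000578). With PTHrP it was -0.36 ± 0.13 and did not pass (adjusted p = 0.114). Of 26 calcium channel genes on the list, 20 were tested. At 1 h 0 passed by limma with either ligand, and 2 with each had an unadjusted p under 0.05, where 1.74% and 1.81% of all genes were called. At 6 h 2 were higher and 1 lower with each ligand, which is 15% against 29.3% of all genes tested with PTH and 20.9% with PTHrP. Of all genes, 17.9% were called lower with PTH and 12.2% with PTHrP. Their median difference was 0.03 with PTH and 0.065 with PTHrP, against -0.003 and 0.031 over all genes. At 24 h 2 were lower with PTH and 1 with PTHrP, or 10% and 5% of the list. Of all genes, 11.6% and 6.1% were called at that time, 5.96% and 3.02% being lower. Of the genes for the beta subunits, which RGK proteins bind, Cacnb1 and Cacnb2 were tested and passed at none of the 3 times with either ligand. At 6 h Cacnb1 differed by 0.04 ± 0.12 with PTH and 0.01 ± 0.12 with PTHrP, and Cacnb2 by -0.06 ± 0.12 and -0.05 ± 0.12. Cacnb3 and Cacnb4 were not tested.

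**Figure D5:**
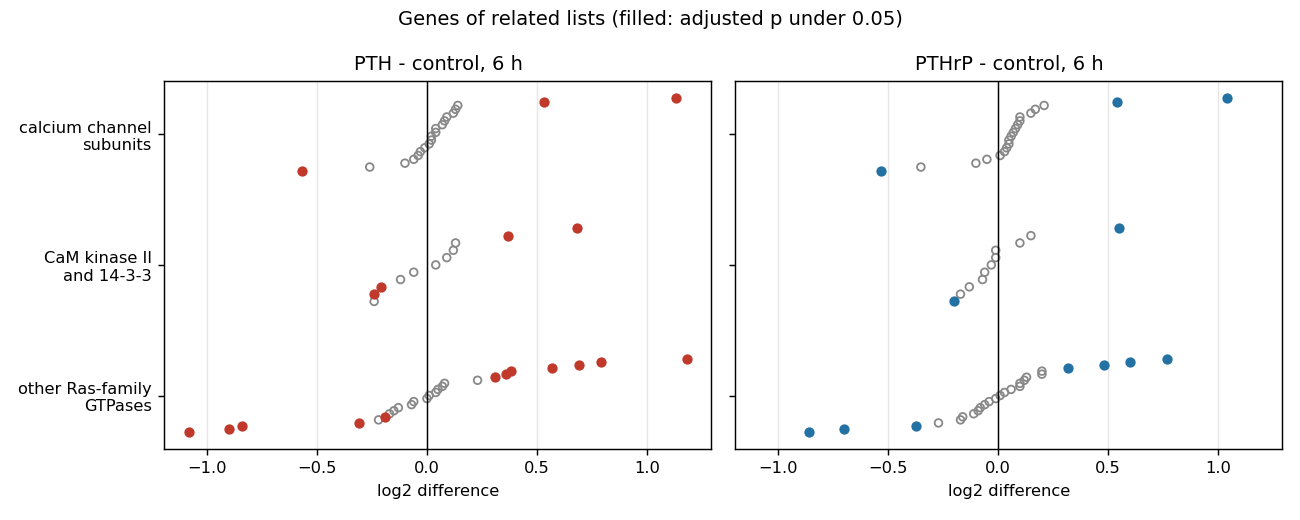
Log2 differences from untreated cells at 6 h with PTH (left) and PTHrP (right) for the tested genes of 3 related lists, 1 point a gene, sorted within each list. Filled points passed at an adjusted p under 0.05, and open points did not. Genes of each list lie on both sides of 0, and Cacna1c is the calcium channel gene farthest to the right, at 1.13 and 1.04.

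Of the proteins that bind RGK GTPases and affect where they lie in the cell, 11 of 14 genes for calmodulin, CaM kinase II and 14-3-3 proteins were tested. Camk2g, a CaM kinase II subunit, rose at 6 h by 0.68 ± 0.06 log2 units with PTH and 0.55 ± 0.06 with PTHrP. Among the 14-3-3 genes at 6 h, Ywhah differed by -0.24 ± 0.07 with PTH and -0.20 ± 0.07 with PTHrP. With PTH alone, Ywhaq passed at -0.21 ± 0.07 and Ywhag at 0.37 ± 0.08. At 6 h 2 genes were higher and 2 lower with PTH, which is 36.4% of the list against 29.3% of all genes, and 1 was higher and 1 lower with PTHrP, which is 18.2% against 20.9%. These shares are near the background. At 1 h and 24 h 0 passed with either ligand by limma, and 2 had an unadjusted p under 0.05 with PTH at 1 h and 0 otherwise. At 1 h 1.74% and 1.81% of all genes were called, so a count of 0 among 11 genes says nothing about the list. At 24 h 11.6% and 6.1% were called.

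Other GTPases of the Ras branch changed in both directions. Of 29, 25 were tested. At 1 h Rasd1, a steroid-inducible Ras protein, rose by 0.43 ± 0.09 log2 units with PTH and 0.61 ± 0.09 with PTHrP, Rras2 rose by 0.45 ± 0.11 and 0.49 ± 0.11, and Rasl11a fell by 0.51 ± 0.13 and 0.63 ± 0.13. The Rasl11a call was lost with PTH when array medians were set equal, with the upper quartile covariate and with the replicate block, and with PTHrP in the fit to those arrays alone, which called 1 gene of the list higher. These 3 genes are 12% of the list, against 1.74% and 1.81% of all genes tested. At 6 h 7 were higher and 5 lower with PTH and 4 higher and 3 lower with PTHrP, or 48% and 28% of the list, against 29.3% and 20.9% of all genes tested. By direction all genes stood at 11.4% higher and 17.9% lower with PTH and 8.7% and 12.2% with PTHrP. The differences ran from -1.08 for Rasl11a to 1.18 for Rasl10b with PTH, and the median was 0.013 against -0.003 over all genes. At 24 h 2 were higher and 2 lower with PTH and 1 higher and 1 lower with PTHrP, or 16% and 8% of the list against 11.6% and 6.1% of all genes. Rasl11a, lower at 1 and 6 h, was then higher, by 0.61 ± 0.13 with PTH (adjusted p = 0.00244) and 0.51 ± 0.13 with PTHrP (adjusted p = 0.0183). Rhebl1 was higher with PTH by 0.45 ± 0.09, and Rerg lower, at -0.36 ± 0.12. At 6 h both had been called in the other direction with PTH, Rhebl1 at -0.84 ± 0.09 and Rerg at 0.31 ± 0.12. The difference of Rasl11b was -1.15 ± 0.13 with PTH and -0.45 ± 0.13 with PTHrP, both calls, and the ligands differed by 0.69 ± 0.13 (adjusted p = 0.00362).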

How the data were processed

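RNA of 27 samples was hybridised to arrays. The deposited intensity values were made by the authors with RMA, which corrects background, quantile-normalizes and summarises probe sets, per the submitters' processing notes, and were normalized again for the deposit, per the design text. The software version is not given in the sources used here. Log2 was taken. Control probe sets (64) were left out, each of 18193 genes was represented by its brightest single-symbol probe set, and 15711 genes, those reaching log2 5 on 3 or more arrays, were tested. The limma package (3.58.1, R 4.3.3) fitted 9 group means to all arrays. Tests were two-sided, with Benjamini-Hochberg adjusted p over all genes and a threshold of 0.05. The code was tested on simulated data. The number of arrays limits the precision, and since separate cultures are not stated, p-values reflect sample-to-sample spread that may be only technical.

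The members and lists were chosen with earlier results of these data known, so p-values are not independent of that choice. Named genes were the members and Rem2, up to 4 genes per list and treatment comparison with the largest difference among those past the threshold without overlapping arrays, and the 5 genes most like Gem. As a check of pairing, deviations from group means were correlated between arrays sharing a replicate number. All 3 correlations exceeded 0.1 in 1 of 9 group comparisons, that of PTHrP with untreated cells at 1 h. One related gene list and its results are not reported here. The alternatives are given in the closing section.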

Additional observations from a re-analysis of the deposited data

Results flagged for a closer look

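Several effects on the members differed between ligands or times by a test of that difference. Gem differed between the ligands at 6 h by -2.11 log2 units (limma adjusted p = 5.17e-07). Its PTH effect changed from 6 to 24 h by -2.82 and its PTHrP effect by -0.99. The ligand difference of Gem changed by 1.83 from 6 to 24 h, in a comparison added after the values were seen. The change of this ligand difference from 1 to 6 h was -1.80. That value rests on the 1 h arrays taken to have led to the choice of Gem and is a description without a test. The PTHrP effect on Rrad changed from 1 to 6 h by -0.65 (adjusted p = 0.0214), although neither of the 2 differences it is made of passed.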

How the results depend on the processing

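Of the calls on members, those of Gem with PTH at 6 h and 24 h, with PTHrP at 6 h, between the ligands at 6 h and for the change of the PTH effect from 6 to 24 h passed under every alternative tried. With log2(value + 16), Gem's untested 1 h differences were 2.74 and 2.44, and its PTHrP difference at 24 h was 0.56 and no longer passed (adjusted p = 0.0534). Array weights gave 3.07 for Gem with PTHrP at 1 h and -1.60 for the change of that effect to 6 h. They also brought below the threshold Gem in untreated cells at 6 h (-0.59) and 24 h (-0.51), and Rrad with PTH at 6 h (-0.30), with PTHrP at 1 h (0.42) and 6 h (-0.32), and for the change of the PTH effect from 1 to 6 h (-0.48). The upper quartile covariate did so for Gem in untreated cells (-0.69 and -0.53) and Rrad with PTH at 24 h (-0.36), and ended the change of Rrad's PTHrP effect (-0.49). With only the arrays compared, Gem in untreated cells passed at -0.67 and -0.53. Cyclic loess gave -0.91 for the change of Gem's PTHrP effect from 6 to 24 h, which no longer passed. The stricter filter and log2(value + 16) brought the change of Rrad's PTH effect past the threshold, at -0.52 and -0.45. In the alternatives without 1 array, calls changed for Gem with PTHrP at 24 h (0.58 to 0.88), the change of its PTHrP effect from 6 to 24 h (-1.16 to -0.85), Gem in untreated cells at 24 h (-0.66 to -0.37), Rrad with PTH at 6 h (-0.40 to -0.20), and the change from 1 to 6 h of Rrad's PTH effect (-0.65 to -0.42) and PTHrP effect (-0.74 to -0.56). The replicate block brought Gem in untreated cells at 24 h past the threshold (-0.53, adjusted p = 0.037) and changed no other call on Gem or Rrad. The comparisons of Gem in untreated cells use the 1 h arrays taken to have had a part in its choice, so their calls are not independent of it. Where calls changed, the cause was not tested.

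The number of genes called varied over the alternatives. With PTH it ranged from 194 to 802 at 1 h (273 as reported), 3830 to 8551 at 6 h (4605) and 1275 to 4388 at 24 h (1830). The 8551 counts probe sets, from a fit of every probe set by itself, and is not comparable with the 4605 genes. With PTHrP the number of genes ranged from 93 to 1764 (285), 2484 to 6952 (3288) and 673 to 2079 (959). Between the ligands it was 629 to 4540 at 6 h (1197) and 77 to 1273 at 24 h (182). Array weights gave the highest count in 7 of these 8 comparisons. Without PTHrP 1 h replicate 3 the count with PTHrP at 1 h was 931. The replicate block on the 6 arrays of untreated cells and PTHrP at 1 h, chosen after seeing the data, gave the 93.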
